A study of Mus musculus with 3 samples.

Results

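The genes described here carry iron into, through and out of cells or decide whether iron-driven lipid damage kills them. They are Tfrc, Steap3, Ftl1, Fth1, Ncoa4, Slc40a1, Hmox1, Gpx4, Slc7a11 and Acsl4. The choice was by name for these roles, with earlier results of these data known. All 10 were found among the 27088 genes of the deposited table. They were measured in sorted spleen B cells of female BALB/c mice with allergic rhinitis induced by ovalbumin (OVA). The mice were 6 weeks old at the start and 13 weeks old by the sample labels. In both groups used here, OVA (10 μg) with 2 mg of the adjuvant Al(OH)3 was given intraperitoneally on days 0, 7 and 14, and 100 μg OVA was dropped into the nose daily from day 21 to 27 and again from day 29 until day 35. The PBS group was injected with saline and the SJMHE1 group with 10 μg of SJMHE1, a peptide from the blood fluke Schistosoma japonicum, on days 0, 14 and 28, and the mice were killed on day 36. The peptide was emulsified in incomplete Freund's adjuvant and the saline was not, so the peptide and this adjuvant cannot be told apart. RNA of 3 samples per group was mixed, which left 1 library per group, no replicate error and no test, so every difference below is between 2 libraries. The healthy Control group was not analysed here.

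Cells take up transferrin-bound iron through the transferrin receptor, reduce it in the endosome, and use it, store it in ferritin or export it through ferroportin. Iron regulatory proteins bind a hairpin in the messenger RNA, the iron-responsive element, when iron is scarce. In a 5′ untranslated region this blocks translation, as in ferritin, and in the 3′ untranslated region of the transferrin receptor it protects the RNA from decay. Ferroptosis is a form of cell death in which free iron drives the peroxidation of membrane lipids, and glutathione peroxidase 4 holds it back. In the spleen, red pulp macrophages recycle the iron of old red cells and are known for high ferroportin and heme oxygenase 1.

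The hairpins are printed because they separate the genes by the way iron can act on their RNA. The reference transcripts (GENCODE M21, build GRCm38) were searched for an unpaired C, an arm of 5 bases, the loop CAGTGN and a second arm that pairs with the first, G with U allowed. Each site of 29 bases is written 5′ to 3′ on the strand of the gene, as DNA, with the loop in capitals.
Fth1, 5′ untranslated region, chr19:9982732-9982760, plus strand: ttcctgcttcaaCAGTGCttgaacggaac
Ftl1, 5′ untranslated region, chr7:45459779-45459807, minus strand: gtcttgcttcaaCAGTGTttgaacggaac
Slc40a1, 5′ untranslated region, chr1:45925465-45925493, minus strand: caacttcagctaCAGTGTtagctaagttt
Tfrc, 3′ untranslated region, chr16:32631219-32631247, plus strand: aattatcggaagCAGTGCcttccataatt
Tfrc, 3′ untranslated region, chr16:32631598-32631626, plus strand: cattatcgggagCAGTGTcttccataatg
Tfrc, 3′ untranslated region, chr16:32631663-32631691, plus strand: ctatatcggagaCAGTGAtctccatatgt
Tfrc, 3′ untranslated region, chr16:32631710-32631738, plus strand: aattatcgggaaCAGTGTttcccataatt
The pattern was found in the 5′ untranslated region of 30 of 21181 genes (0.142%) and in the 3′ untranslated region of 143 of 21166 genes (0.676%). Of the other genes in the iron and ferroptosis lists described below, Alas2, the erythroid enzyme that starts heme synthesis, held a match, in its 5′ untranslated region. A match describes the letters only, and the binding of a protein was not measured. The pattern is strict, so a gene without a match may still hold an iron-responsive element.

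Depth was close between the libraries, with 48267168 counts for PBS and 51280237 for SJMHE1. FPKM, fragments scaled by gene length and by library size, was used for levels. In PBS, counts and FPKM implied a length of 3945 bases for Fth1 and 1524 for Ftl1. All exons of each gene merged span 3469 and 1340 bases. Merged exons can be longer than a gene's main transcript, so orders and ratios between genes depend on this length. All 12 B cell markers were abundant in both libraries, from 61.4 to 4643 FPKM in PBS, led by Cd74 and Cd79a. Differences are given as the log2 of the FPKM ratio, SJMHE1 to PBS, with a 95% interval from the counts that covers counting error only. A gene passed the filter when either library reached 1 FPKM and neither was at 0, and it was called past the threshold when its ratio exceeded 2-fold in either direction. Of the 12433 genes that passed, 6% were past the threshold (2.43% with the higher level in SJMHE1, 3.57% with the higher level in PBS), and among those with a protein-coding transcript 2.63% were. Gene positions below are those of the deposited table, on GRCm38 (mm10).

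Steap3 alone among the iron handling and ferroptosis genes was past the threshold, higher in the SJMHE1 library. Among the other 9, Slc40a1 had the largest difference, a log2 ratio of 0.55. Over all 10 genes, 6 had a higher and 4 a lower level in SJMHE1, and the median ratio was 0.15 beside -0.01 for all genes that passed the filter. Slc7a11 did not pass the filter and the other 9 did. The counting interval lay above 0 for 6 genes, below 0 for 3 and across 0 for Slc7a11. In bulk RNA, fewer cells of a type and less RNA per cell cannot be told apart.

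**Figure D1:**
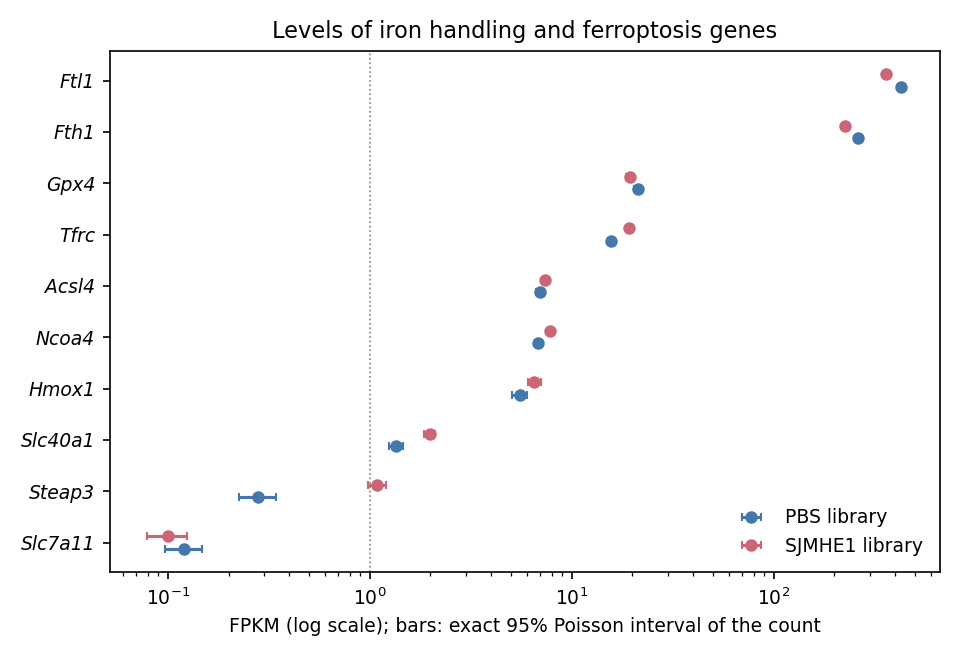
FPKM of each gene on a log axis in the PBS library (blue) and the SJMHE1 library (red), 1 point per library, with exact 95% Poisson intervals of the count and a dotted line at 1 FPKM. The ferritin genes Ftl1 and Fth1 stand far to the right, at 226 FPKM or more, Slc7a11 lies near 0.1, and Steap3 has the widest gap between the libraries.

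The levels spanned a wide range. Ftl1, at 428 FPKM, ranked 88 of all 27088 genes in the PBS library, and Fth1 ranked 144. Gpx4, Tfrc, Acsl4, Ncoa4, Hmox1, Slc40a1, Steap3 and Slc7a11 followed in that order. The counting intervals of Acsl4 and Ncoa4 overlapped in both libraries, and in SJMHE1 Ncoa4 had the higher value of the pair. Gpx4 and Tfrc were apart in PBS (21.3 and 15.7 FPKM) and overlapped in SJMHE1 (19.5 and 19.2). The rest of the order was the same in both libraries.

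Iron entry was represented by Tfrc and Steap3. Tfrc (chr16:32608920-32632794), the transferrin receptor and the gene with 4 of the hairpins above, had 15.7 FPKM from 5316 counts in PBS and 19.2 FPKM from 6915 counts in SJMHE1. This was 1.23-fold higher in SJMHE1 (interval 1.19 to 1.27, log2 ratio 0.30). Of all genes that passed the filter, 32.6% had a larger difference in either direction.

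Steap3 (chr1:120190757-120271082) encodes the endosomal reductase that turns ferric into ferrous iron after transferrin uptake, and it is known for this role in red cell precursors. It had 0.28 FPKM from 88 counts in PBS and 1.09 FPKM from 365 counts in SJMHE1. The level in SJMHE1 was 3.89-fold that in PBS (interval 3.08 to 4.97, log2 ratio 1.96), and 77 of the 12433 genes had a higher ratio. Steap3 passed the filter only through the SJMHE1 library and so had to differ for this. It was no longer past the threshold with 1 FPKM added to both values (log2 ratio 0.71), and it was not tested when at least 1 FPKM was asked of both libraries. No other gene shared a stretch of 50 bases with its transcripts, nor overlapped its exons.

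Iron storage was carried by the ferritin genes, the most abundant of the group. Ftl1 (chr7:45457944-45459884), the light chain that helps to mineralize iron, had 428 FPKM from 31479 counts in PBS and 362 FPKM from 28187 counts in SJMHE1. Its level in SJMHE1 was 0.846 times that in PBS (interval 0.832 to 0.860, log2 ratio -0.24). Fth1 (chr19:9980598-9985092), the heavy chain that oxidizes ferrous iron, had 261 FPKM from 49750 counts in PBS and 226 FPKM from 45516 counts in SJMHE1. The ratio was 0.864 (interval 0.853 to 0.875, log2 ratio -0.21). Rescaled to equal FPKM sums, the log2 ratios were -0.16 for Ftl1 and -0.13 for Fth1, outside these counting intervals. Both chains were lower in SJMHE1 by nearly the same factor, and Ftl1 was 1.64 times Fth1 in PBS and 1.60 times in SJMHE1. Among all genes that passed the filter, 40.3% differed by more than Ftl1 and 45.7% by more than Fth1.

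Ferritin has many near-identical copies in the genome, which limits how reads can be assigned. Of the 50-base windows of the Ftl1 transcripts, 75% also occur in transcripts of 15 other genes. Ftl1-ps1 holds 69.7%, whether or not another gene holds them too. Ftl1-ps1 had 411 counts in PBS and 405 in SJMHE1, and Ftl2-ps had 72 in each, small against Ftl1 itself. Fth1 shared 3.59% of its windows, and Fth-ps2 had 17 and 21 counts. An antisense gene, Gm10252, shares 355 exon bases with Ftl1 and had 212 counts in PBS and 245 in SJMHE1, and whether the counting used strand was not stated. The level of Ftl1 is therefore uncertain to the extent that reads were split.

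Ncoa4 (chr14:32159865-32179855), the receptor that delivers ferritin to the autophagosome so that its iron is freed, was higher in SJMHE1. It had 6.78 FPKM from 3490 counts in PBS and 7.85 FPKM from 4275 counts in SJMHE1, a ratio of 1.16 (interval 1.11 to 1.21, log2 ratio 0.21). Of all genes that passed the filter, 45.5% had a larger difference. Fth1 was 38.5 times Ncoa4 in PBS and 28.8 times in SJMHE1. Ferritin protein, on which the receptor acts, was not measured. Of its 50-base windows, 39.1% also occur in the transcripts of Gm6768, so its reads may be split too.

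Iron release from the cell and from heme was represented by Slc40a1 and Hmox1. Slc40a1 (chr1:45908068-45926523) encodes ferroportin, the known iron exporter. It had 1.35 FPKM from 666 counts in PBS and 1.98 FPKM from 1039 counts in SJMHE1. This was 1.47-fold higher (interval 1.33 to 1.62, log2 ratio 0.55), the largest difference after Steap3, and 14.8% of all genes that passed the filter differed more. With 1 FPKM added to both values the log2 ratio was 0.34. Ftl1 was 317 times Slc40a1 in PBS and 183 times in SJMHE1.

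Hmox1 (chr8:75093621-75100589) encodes heme oxygenase 1, which opens the heme ring and sets its iron free. It had 5.53 FPKM from 532 counts in PBS and 6.54 FPKM from 666 counts in SJMHE1. The ratio was 1.18 (interval 1.05 to 1.33, log2 ratio 0.24), and 40.2% of the genes that passed the filter had a larger difference.

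Defence against ferroptosis and its lipid substrates were represented by Gpx4, Acsl4 and Slc7a11. Gpx4 (chr10:80047166-80056439), the selenoenzyme that reduces lipid peroxides in membranes, had 21.3 FPKM from 2018 counts in PBS and 19.5 FPKM from 1959 counts in SJMHE1. The ratio was 0.917 (interval 0.861 to 0.976, log2 ratio -0.13). Acsl4 (chrX:142317993-142390535), an acyl-CoA synthetase, activates polyunsaturated fatty acids for the lipids that can be peroxidized. It had 6.95 FPKM from 2064 counts in PBS and 7.41 FPKM from 2328 counts in SJMHE1. The ratio was 1.07 (log2 ratio 0.09, interval 0.01 to 0.18). Gpx4 was 3.06 times Acsl4 in PBS and 2.64 times in SJMHE1. Larger differences than those of Gpx4 and Acsl4 were seen in 64.3% and 72.6% of the genes that passed the filter. Of the windows of Gpx4, 51.4% also occur in Gpx4-ps2, which had 365 counts in PBS and 391 in SJMHE1.

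Slc7a11 (chr3:49892526-50443614) encodes the transport subunit of the cystine and glutamate exchanger that feeds glutathione synthesis, and it was barely expressed. It had 0.12 FPKM from 93 counts in PBS and 0.10 FPKM from 80 counts in SJMHE1, and the interval of the log2 ratio, -0.71 to 0.18, held no difference as well as a small one in either direction. Slc3a2, the heavy subunit that pairs with Slc7a11 and with other amino acid transporters, had 36.0 FPKM in PBS and 29.7 FPKM in SJMHE1.

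**Figure D2:**
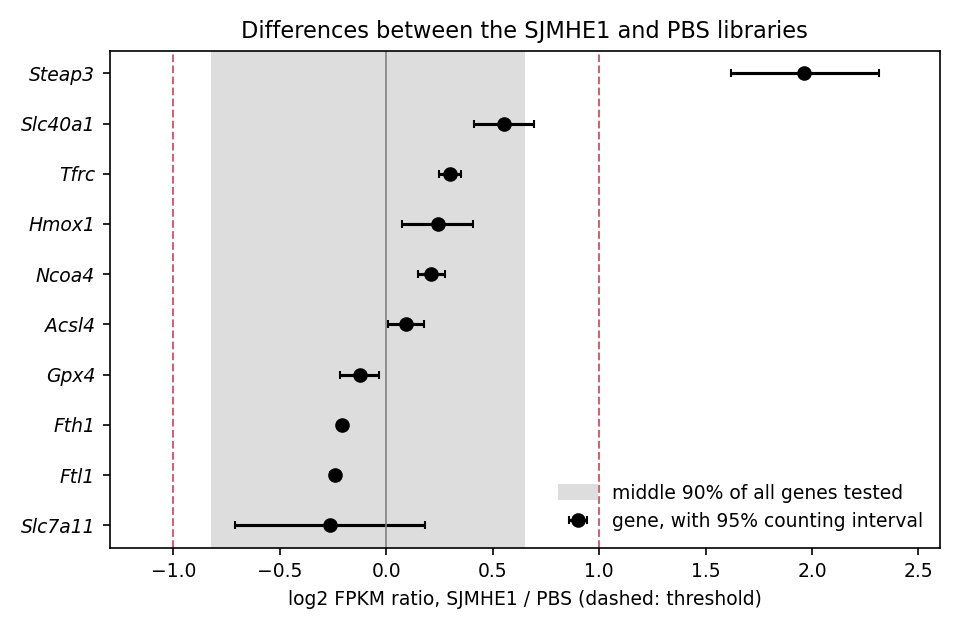
Log2 FPKM ratio, SJMHE1 to PBS, of each gene, with its 95% counting interval, dashed lines at the threshold of 1 in either direction and a grey band for the middle 90% of the 12433 genes that passed the filter (-0.82 to 0.64). Steap3, at 1.96, lies outside the band and the other 9 lie inside it.

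Put beside the hairpins, the 4 genes with a match to the pattern differed in direction. The ferritin genes, with 1 site each in the 5′ untranslated region, were lower in SJMHE1 (log2 ratios -0.24 and -0.21). Slc40a1, also with 1 site there, was higher (0.55), and so was Tfrc with its sites in the 3′ untranslated region (0.30). Alas2 had 1.37 FPKM in PBS and 2.10 in SJMHE1 (0.62). RNA level does not show translation, on which the 5′ sites act. Several of these genes are also targets of the stress factor NRF2. Its core motif, TGACNNNGC, was searched on both strands of the RefSeq promoter windows (GRCm38.p6), which reach from before each start to just after it and are held for 8 of the 10 genes, all but Hmox1 and Slc40a1. Ncoa4 was the 1 gene with a match (12.5% of the 8), beside 14.0% of all genes. Sequence farther from the start was not searched, so a gene without a match may still hold the motif there.

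The other genes of the pathways were taken from 10 lists, whose members overlap. Of 107 genes in them that passed the filter, leaving out the genes above, 2 were called higher and 3 called lower, a share of 4.67% that lay above the 2.63% of genes with a protein-coding transcript and below the 6% of all genes. With 1 FPKM added to both values, Hspb1 alone of these 5 was past the threshold. List medians were computed over genes that reached 0.1 FPKM in either library and were at 0 in neither, for which the median of all genes was -0.03.

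For iron uptake and transport, the median ratio was 0.12 and 1 of 14 genes was past the threshold, beside 6% of all genes. That gene was Tfr2, the second transferrin receptor, known in liver and red cell precursors, with 0.54 FPKM in PBS and 1.15 FPKM in SJMHE1 (130 and 294 counts, log2 ratio 1.09). As with Steap3, it passed the filter only through the SJMHE1 library. For iron sensing and storage control the median was 0.11 and 0 of 9 were past the threshold. Among those with at least 50 counts in a library, the largest differences were those of Fbxl5 (0.26), the iron-sensing part of a ubiquitin ligase, Herc2 (0.24), which is known to target Fbxl5, and Hif1a (0.20), a subunit of the hypoxia factor. In heme synthesis, transport and breakdown, the median was 0.17 and 0 of 16 were past it. Cd163, the receptor for hemoglobin bound to haptoglobin, was at 0.11 and 0.17 FPKM, and the ratio of Alas2 was 0.62. In iron-sulfur cluster assembly the median was -0.03 and 0 of 11 were past the threshold, with Fdx1 at -0.53, the scaffold gene Iscu at -0.44 and Lyrm4 at 0.43.

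Among ferroptosis genes, the list of glutathione and cystine supply had a median of -0.05 and 0 of 8 past the threshold. Gss, glutathione synthetase, had 1.48 FPKM in PBS and 0.84 FPKM in SJMHE1 (log2 ratio -0.82), and the ratios of Slc3a2 and of Gsr, glutathione reductase, were -0.28 and -0.26. In lipid peroxidation the median was -0.01 and, beside 6% of all genes, 1 of 16 was past the threshold. This was Alox15, a lipoxygenase that can oxidize membrane lipids, with 1.32 FPKM in PBS and 0.28 FPKM in SJMHE1 (179 and 40 counts, -2.24). Alox15 passed the filter only through the PBS library. The list named other brakes on ferroptosis had a median of -0.06, with 1 gene higher and 1 lower of 14, beside 2.43% and 3.57% of all genes. It also holds genes that are not established brakes, Prnp, Vdac2 and Vdac3 among them. The small heat shock protein gene Hspb1 had 8.19 FPKM in PBS and 44.4 FPKM in SJMHE1 (2.44), and Prnp, the prion protein gene, had 3.97 and 1.94 FPKM (-1.03).

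Ferritinophagy and autophagy had a median of -0.08 and 0 of 12 past the threshold, the largest differences being those of Sqstm1 (-0.47), an autophagy receptor, Map1lc3b (-0.34) and Atg7 (-0.31). The NRF2 target genes had a median of -0.12 and 1 of 12 past the threshold, beside 6% of all genes. That gene was Osgin1, an oxidative stress response gene, with 2.83 FPKM in PBS and 1.01 FPKM in SJMHE1 (-1.49). Of the NRF2 list, 4 genes are among the 10 genes above. The KEGG ferroptosis pathway holds all 10 genes among its 40 and had a median of -0.04, with Steap3 higher and Alox15 and Prnp lower of 34 that passed the filter. Without the 10 genes, its median was -0.06 and 2 of 25 were past the threshold, beside 6% of all genes. The medians of iron-sulfur cluster assembly, glutathione and cystine supply, lipid peroxidation, other brakes and KEGG ferroptosis turned above 0 when the libraries were rescaled to equal FPKM sums, and that of iron uptake and transport was -0.02 when at least 1 FPKM was asked of both libraries.

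**Figure D3:**
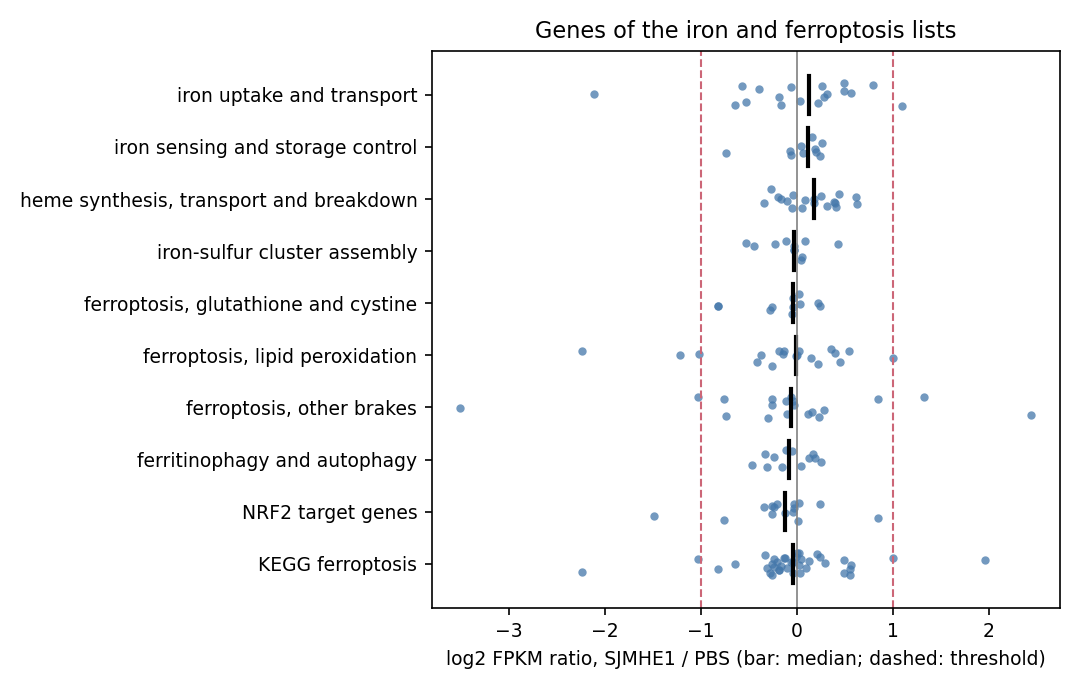
Log2 FPKM ratio, SJMHE1 to PBS, of every gene in each of the 10 lists that reached 0.1 FPKM in either library and was at 0 in neither. Each point is 1 gene, the black bar is the list's median and dashed lines mark the threshold. The medians lie between -0.12 and 0.17, and Hspb1 at 2.44, Steap3 at 1.96 and Alox15 at -2.24 are among the points outside the dashed lines.

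Other cells that use or recycle iron were looked for, since a sorted sample can hold their RNA. Of 16 erythroid markers, 15 were higher in the SJMHE1 library, with a median ratio of 0.64 beside -0.03 for all genes. Their summed level was 188 FPKM in PBS and 253 FPKM in SJMHE1. The most abundant, Hbb-bs and Hba-a1, had 49.2 and 42.2 FPKM in PBS and 62.3 and 49.9 FPKM in SJMHE1. Of 15 that passed the filter, 2 were called higher, beside 2.43% of all genes. Among the 2 was Epor, the erythropoietin receptor gene, named after its values were seen (1.27). Both passed the filter only through the SJMHE1 library. None was at 0 counts in either library. The markers were higher in the same library as Steap3, Tfrc, Tfr2 and Alas2, of which Alas2 is itself on the erythroid list, and their part in those differences was not tested.

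Of 20 red pulp macrophage markers, 3 were called higher and 1 lower of 12 that passed the filter, beside 2.43% and 3.57% of all genes. The median was 0.09 (-0.21 over the 8 genes that reached 1 FPKM in both libraries). The sum was 124 FPKM in PBS and 71.6 FPKM in SJMHE1. That sum was led by Lyz2, which had 88.8 FPKM in PBS and 37.4 FPKM in SJMHE1, and Cd68, which had 12.6 and 6.77 FPKM. It therefore follows mainly these genes and not the list as a whole. Of the 19 markers behind the median, 12 had a higher and 7 a lower level in SJMHE1. The 3 called higher, named after their values were seen, were Cd5l (0.78 and 2.77 FPKM), C1qc and C1qb. Of these, Cd5l and C1qc passed the filter only through the SJMHE1 library. The defining factor Spic had 3.06 FPKM in PBS and 3.25 FPKM in SJMHE1, and Vsig4 had 12 counts in PBS and 0 in SJMHE1. The part of these cells in the higher Slc40a1 and Hmox1 values was not tested.

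Further marker lists differed between the libraries as well. Of 14 T cell markers, 13 were called lower, beside 3.57% of all genes (median -2.05, sum 83.9 FPKM in PBS and 39.6 FPKM in SJMHE1). Of the 13, 7 passed the filter only through the PBS library. The median was -0.98 with 1 FPKM added and -1.73 over the 7 genes that reached 1 FPKM in both libraries. The dendritic cell list had a median of -0.93 (-0.42 with 1 FPKM added), the plasma cell list -0.29, the neutrophil list -0.12, the list of cycling cells -0.07 and the B cell list 0.01. Of these lists, 2 of 4, 1 of 8, 0 of 12, 0 of 9 and 0 of 12 genes that passed the filter were called lower, beside 3.57% of all genes. None was called higher. Of those called, 1 of the dendritic cell and the 1 plasma cell marker passed the filter only through the PBS library. Among the B cell markers, Cr2, the complement receptor that is high on marginal zone B cells and named after its values were seen, had 136 FPKM in PBS and 218 FPKM in SJMHE1 (0.68). By mean level, Lck and Trbc2 led the T cell list, Bst2 and Itgax the dendritic cell list, Jchain and Irf4 the plasma cell list, S100a9 and Ngp the neutrophil list and Pcna and Mcm5 that of cycling cells. Trbc2 had 14.6 FPKM in PBS and 3.46 FPKM in SJMHE1, and Lck, which B cells can also express, had 27.9 and 25.2 FPKM. The part of these cells in the levels of the ferritin genes, which most cells express, was not tested.

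**Figure D4:**
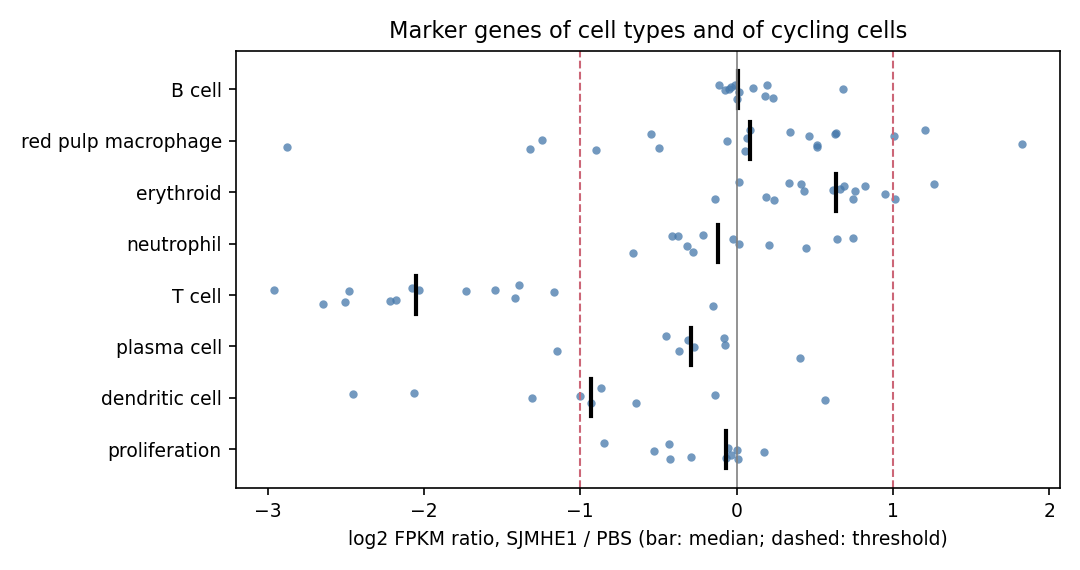
Log2 FPKM ratio, SJMHE1 to PBS, of marker genes of 7 cell types and of cycling cells that reached 0.1 FPKM in either library and were at 0 in neither. Each point is 1 gene, the black bar is the median of each list and dashed lines mark the threshold. The median of the T cell markers lies to the left (-2.05), that of the erythroid markers to the right of 0 (0.64, with Car1 at -0.14), and that of the B cell markers near 0 (0.01, with Cr2 at 0.68).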

How the data were processed

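Total RNA of sorted spleen B cells was freed of ribosomal RNA and sequenced, with the RNA of 3 samples mixed per library. The table deposited by the authors holds read counts, which are whole numbers and not normalized, and FPKM values, which the authors scaled by length and depth and rounded to 2 decimals. The submitters' processing notes name bcl2fastq 2.0, HISAT2, StringTie, DESeq2, limma and mm10 without their roles. By their names, 4 value columns belong to the PBS and SJMHE1 libraries. Another 2 match no sample and were not used, so the Control group entered no comparison.

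The members and the gene lists were chosen with earlier results of these data known. Counting intervals were exact (Clopper-Pearson for ratios, Poisson for levels, at 95%) and cover counting error only. Named were the 10 genes, each list gene past the threshold, otherwise the 3 with the largest ratio and at least 50 counts in 1 library, the 2 most abundant markers of each marker list, and copies of the 10 genes. A few genes that this rule picks are not reported here. Alternatives were other pseudocounts, filters and scalings. The calculations were tested on simulated data. Python 3.11.15 with pandas 2.3.3 and scipy 1.17.1, and R 4.3.3 with edgeR 4.0.16 and DESeq2 1.42.0 for scaling factors, were used.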

Additional observations from a re-analysis of the deposited data

How the results depend on the processing

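The 10 genes kept their direction in all 50 values under the 5 scalings tried. Each scaling shifts all log2 ratios by nearly the same amount. The largest shift, 0.08, was below the smallest ratio in size, 0.09 for Acsl4, so the direction could not turn. The pseudocounts and filters could not turn it either. Of 88 values under 9 alternatives, 10 lay outside the counting interval. Among them were those of Fth1 and Ftl1 under equal FPKM sums and under the edgeR and DESeq2 scaling factors. With 1 FPKM added, 0 of the 9 genes of the group that passed the filter were past the threshold. Of all genes 246 of 12433 (1.98%) were, and of the pathway genes outside the 10, 1 of 107 (0.93%). When both libraries had to reach 1 FPKM, these were 0 of 8, 252 of 11366 (2.22%) and 3 of 101 (2.97%). Without a filter they were 1 of 10, 3385 of 20426 (16.6%) and 10 of 129 (7.75%). With 0.1 FPKM added, 661 of 12433 genes (5.32%) and 3 of 107 pathway genes (2.80%) were past it. At the main filter without a pseudocount, 260 of 9900 genes with a protein-coding transcript (2.63%) were. The median of the 10 genes was 0.23 after rescaling to equal FPKM sums, which raised every log2 ratio by 0.08. Of 162 list medians, 13 had another sign. No paired analysis was possible because only 1 library stands for a group, so none could be left out either. Comparisons with the Control group were not run. Depth limits Slc7a11 and Steap3 most.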
